A study of Mus musculus with 6 samples.

Results

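The transcripts described here are those of the creatine kinase system of the mouse heart and of its closest partners in phosphate transfer, 9 genes of the 27021 in the deposited table. They are the 4 creatine kinases (*Ckm*, *Ckb*, *Ckmt1* and *Ckmt2*) and the 3 genes of creatine synthesis and uptake (*Gatm*, *Gamt* and *Slc6a8*). The other 2 are adenylate kinases (*Ak1* and *Ak4*). All 9 were taken by gene name, with earlier results of these data known. Counts of calls among them are therefore no test of enrichment. Heart RNA was sequenced in bulk from 3 *Immtfl/fl-Myh6-MCM* animals and from 3 *Immt+/+-Myh6-MCM* animals, whose hearts are called control hearts, and each mouse gave 1 library. By their labels, both groups carried the Myh6-MerCreMer (MCM) transgene, a tamoxifen-inducible Cre under the α-myosin heavy chain promoter, and both received tamoxifen at 6 weeks of age. Hearts were taken 20 weeks later, at 26 weeks. The *Immtfl/fl* mice had loxP sites around an exon of *Immt*, which encodes Mic60, a core protein of the complex that forms cristae junctions in mitochondria. Cre acts in cardiomyocytes, while the RNA came from the heart tissue with all of its other cells, and mice of both sexes were used.

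Creatine kinases move phosphate reversibly between ATP and creatine. In cardiomyocytes the mitochondrial enzyme sits in the intermembrane space beside the adenine nucleotide carrier and charges creatine with phosphate from newly made ATP, and the cytosolic enzymes at the myofilaments and ion pumps use that phosphocreatine to restore ATP where it is spent. The heart makes little creatine of its own and takes it up from the blood through a dedicated transporter. Adenylate kinases interconvert ATP, ADP and AMP, a parallel route of phosphate transfer that also sets the AMP signal of energy shortage.

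*Immt* had 23.0, 28.7 and 39.2 CPM (counts scaled by library size) in *Immtfl/fl-Myh6-MCM* hearts, against 663, 453 and 524 CPM in control hearts. The libraries held 49793058 to 53251529 counts in *Immtfl/fl-Myh6-MCM* hearts and 42301627 to 44151674 in control hearts. Mitochondrially encoded genes took 8.20% to 8.85% of the counts in *Immtfl/fl-Myh6-MCM* hearts and 19.5% to 23.3% in control hearts. Reads assigned to *Esr1*, part of whose sequence is also in MCM, came to 71 to 323 counts in *Immtfl/fl-Myh6-MCM* hearts and 144479 to 165400 in control hearts. The near absence of such reads goes against the transgene in the label of the *Immtfl/fl-Myh6-MCM* libraries, although *Immt* was low in them, and the genotype and this difference cannot be told apart. *Xist* was expressed in replicate 3 of each group (20811 counts in the *Immtfl/fl-Myh6-MCM* heart and 11605 in the control heart), with 4 to 16 counts in the other hearts.

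All 9 genes passed the filter on low counts. By edgeR's quasi-likelihood test, with a call set at an adjusted p under 0.05 and a log2 fold change (log2FC) over 1 or under -1, 6 of the 9 were called, against 20.5% of the 17146 genes tested. *Ckmt1* and *Slc6a8* were higher in *Immtfl/fl-Myh6-MCM* hearts, against 9.91% of all genes tested. *Ckm*, *Ckmt2*, *Gamt* and *Ak1* were lower, against 10.6% of all genes tested. In 8 of the 9 genes, *Gatm* being the exception, the groups did not overlap, against 52.8% of all genes tested, with 3 genes above the control hearts (26.9% of all genes) and 5 below them (26% of all genes). At an adjusted p under 0.05 alone, 3 were higher, against 19.9% of all genes, and 5 were lower, against 18.5%. Levels are CPM scaled by TMM factors, a fold is *Immtfl/fl-Myh6-MCM* over control, and the p-values measure the spread between 3 mice per group.

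**Figure D1:**
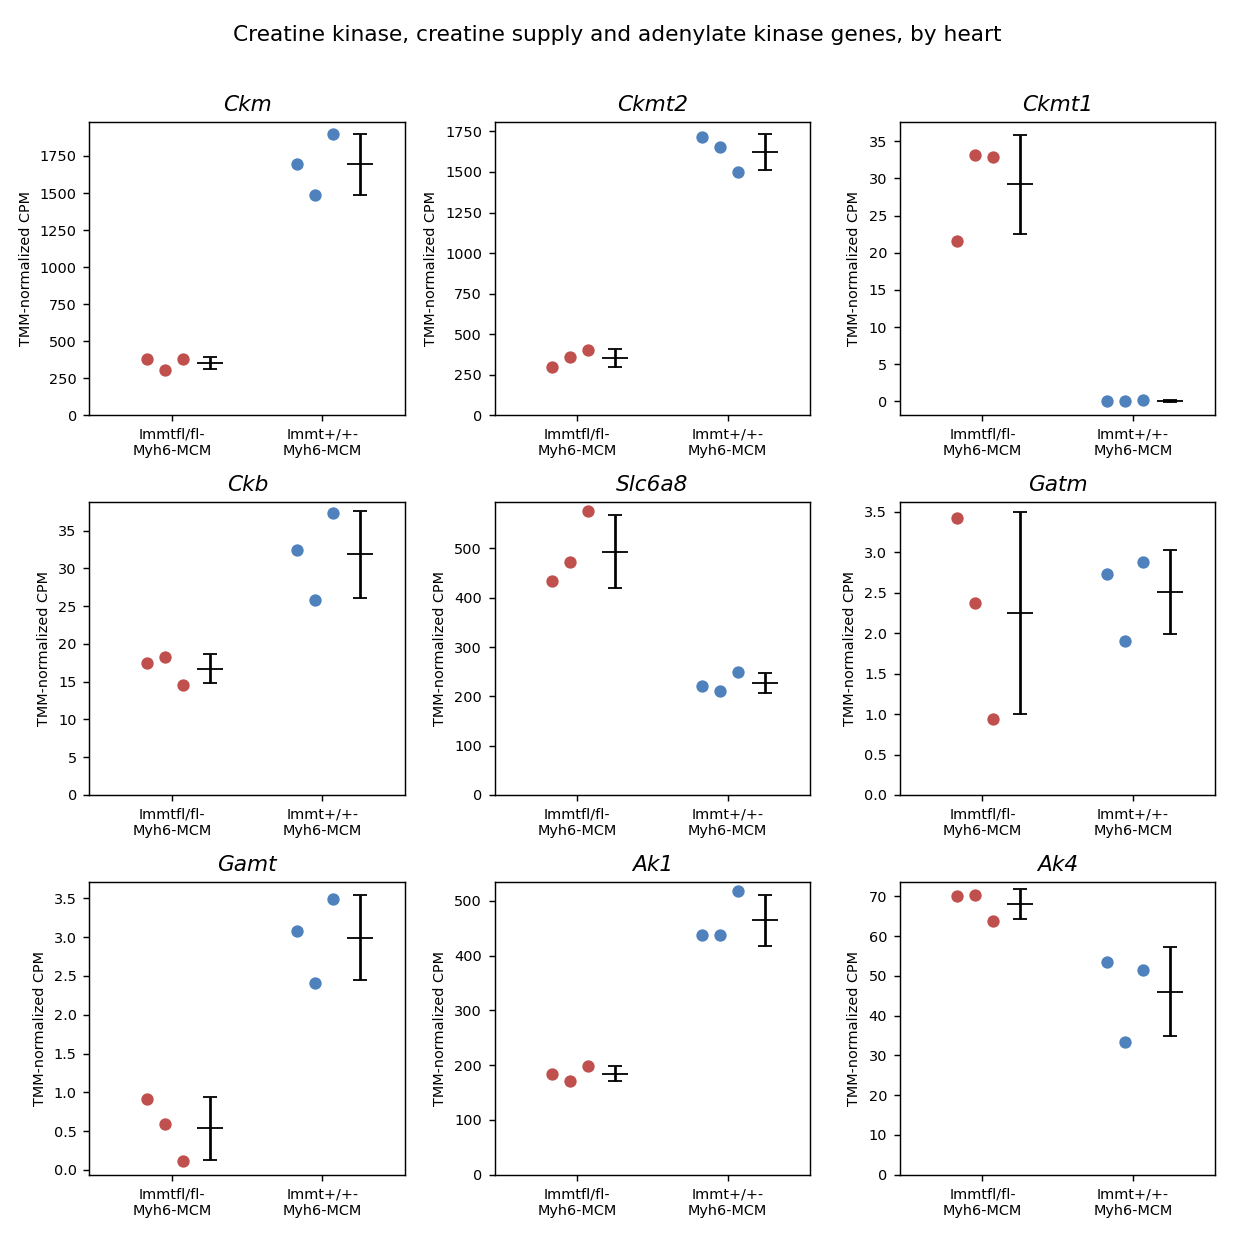
TMM-normalized CPM (vertical axes, linear) of the 9 genes in each heart, with *Immtfl/fl-Myh6-MCM* hearts in red and control hearts in blue, replicates 1 to 3 from left to right. The horizontal mark is the mean and the bar is 1 SD (n = 3). *Ckm* and *Ckmt2* sit at 297 to 402 CPM in *Immtfl/fl-Myh6-MCM* hearts and at 1485 to 1899 CPM in control hearts, and only the *Gatm* panel shows overlapping groups.

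The promoter windows of the 4 creatine kinases are given first, because *Ckm* and *Ckmt2* fell where *Ckmt1* rose. They are RefSeq sequences on GRCm38.p6, running from 250 bases before the transcript start to 50 after it, read along the gene's strand. Windows were found for 8 of the 9 genes, 15 windows in all. Capitals mark CpG dinucleotides and, in *Ckb*, a match to the MEF2 motif. The windows lie at chr7:19410844-19411143 (plus strand) for *Ckm*, chr12:111672289-111672588 (minus strand) for *Ckb*, chr2:121357526-121357825 (plus strand) for the first of the *Ckmt1* windows and chr13:91876836-91877135 (minus strand) for *Ckmt2*.
Ckm: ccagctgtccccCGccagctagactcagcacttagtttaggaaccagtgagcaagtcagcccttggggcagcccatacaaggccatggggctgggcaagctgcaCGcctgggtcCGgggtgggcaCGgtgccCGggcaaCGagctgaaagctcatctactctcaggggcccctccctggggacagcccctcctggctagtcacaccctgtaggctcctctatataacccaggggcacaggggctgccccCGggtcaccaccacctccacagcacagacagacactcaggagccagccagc
Ckb: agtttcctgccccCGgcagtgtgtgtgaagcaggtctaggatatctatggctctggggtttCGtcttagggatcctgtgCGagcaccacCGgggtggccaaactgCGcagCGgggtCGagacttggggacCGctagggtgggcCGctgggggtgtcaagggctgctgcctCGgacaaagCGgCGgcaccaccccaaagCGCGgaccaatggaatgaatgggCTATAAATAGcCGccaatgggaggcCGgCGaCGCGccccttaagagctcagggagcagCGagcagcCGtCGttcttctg
Ckmt1: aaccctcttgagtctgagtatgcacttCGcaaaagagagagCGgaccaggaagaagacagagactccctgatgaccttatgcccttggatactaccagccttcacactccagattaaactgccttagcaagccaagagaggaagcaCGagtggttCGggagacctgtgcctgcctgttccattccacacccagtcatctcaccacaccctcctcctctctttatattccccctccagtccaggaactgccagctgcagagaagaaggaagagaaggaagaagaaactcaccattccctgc
Ckmt2: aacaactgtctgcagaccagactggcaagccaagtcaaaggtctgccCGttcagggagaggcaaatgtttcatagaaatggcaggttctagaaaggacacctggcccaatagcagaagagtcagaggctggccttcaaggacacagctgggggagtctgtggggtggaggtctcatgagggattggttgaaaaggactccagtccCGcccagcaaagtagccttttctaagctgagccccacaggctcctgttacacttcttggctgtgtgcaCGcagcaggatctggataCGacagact

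*Ckmt1* and *Ckmt2*, the paralogues that encode the mitochondrial enzymes, each had 4 CpG dinucleotides in the window shown, and *Ckm* had 7. *Ckb* had 22. The median over all 32851 RefSeq windows was 7, with quartiles of 3 and 20. *Ckmt1*, which had almost no counts in control hearts, and *Ckmt2*, which ranked 50th there, thus had the same number of CpG dinucleotides in the windows shown. A further *Ckmt1* window had 10 CpG dinucleotides, above the median. Outside the kinases, the windows of *Gatm* (22), *Gamt* (14) and *Ak4* (25 to 31) held more CpG dinucleotides than the median, and those of *Ak1* held 2 to 10.

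Each window was searched on both strands for the C/EBP-ATF response element TGATGNAA, the estrogen-related receptor element TNAAGGTCA, the cyclic AMP response element TGACGTCA, the MEF2 motif and the E-box CACGTG. These were present in 3.97%, 1.28%, 1.79%, 3.19% and 7.15% of all windows. The *Ckb* window held a MEF2 match 29 bases before the transcript start, a second *Ak1* window held another, and 1 *Ak4* window held an E-box. None of the 15 windows held a match to the other 3 motifs. Each of the matches reads as a match on both strands at the same place.

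*Ckm* and *Ckmt2*, the enzyme pair of adult cardiac and skeletal muscle, fell together, to 20.9% and 21.7% of their control levels. *Ckm* (chr7:19404776-19422841, 2913 bases of gene length) encodes the cytosolic muscle subunit. It had 380, 307 and 377 CPM in *Immtfl/fl-Myh6-MCM* hearts, against 1695, 1485 and 1899 CPM in control hearts. Every *Immtfl/fl-Myh6-MCM* heart was under the lowest control heart, by a gap far wider than the spread within either group. The mean was 355 ± 41.5 CPM in *Immtfl/fl-Myh6-MCM* hearts and 1693 ± 207 CPM in control hearts (SD, n = 3 each), a log2FC of -2.26 (SE 0.151, edgeR adjusted p = 1.01e-05), or 20.9% of the control level. The median log2FC of 8 cardiomyocyte markers, taken up further on, was -1.42, and in bulk tissue fewer cardiomyocytes and less of an RNA per cardiomyocyte cannot be told apart.

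*Ckmt2* (chr13:91853387-91876885, 1486 bases) encodes the sarcomeric mitochondrial enzyme. It had 297, 359 and 402 CPM in *Immtfl/fl-Myh6-MCM* hearts, against 1716, 1657 and 1497 CPM in control hearts. Here too the groups were far apart. It averaged 353 ± 52.7 CPM in *Immtfl/fl-Myh6-MCM* hearts and 1623 ± 113 CPM in control hearts (SD, n = 3 each), with a log2FC of -2.20 (SE 0.149, edgeR adjusted p = 1.02e-05), or 21.7% of the control level. *Ckm* and *Ckmt2* ranked 346th and 348th of 27021 genes by mean CPM in *Immtfl/fl-Myh6-MCM* hearts, and 45th and 50th in control hearts. Under 14 alternative settings the log2FC of *Ckm* lay between -2.36 and -2.16 and that of *Ckmt2* between -2.31 and -2.08.

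Both loci overlap an antisense gene. Reads assigned to *A930016O22Rik*, inside *Ckm*, amounted to 4.0% to 4.69% of the *Ckm* counts in *Immtfl/fl-Myh6-MCM* hearts and 4.02% to 4.72% in control hearts. Reads assigned to *1700119I11Rik*, inside *Ckmt2*, amounted to 0.749% to 1.31% of the *Ckmt2* counts in *Immtfl/fl-Myh6-MCM* hearts and 0.998% to 1.12% in control hearts. Whether the counting used strand is not stated in the sources, so reads of each pair cannot be told apart, and both partners held under 5% of the host's counts.

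*Ckmt1* (chr2:121357714-121363737, 2496 bases), which encodes the ubiquitous mitochondrial creatine kinase known from brain, kidney and other tissues outside striated muscle, went the other way. It had 1270, 1808 and 1815 counts in *Immtfl/fl-Myh6-MCM* hearts, against 0, 0 and 8 counts in control hearts. On the CPM scale it had 21.5, 33.1 and 32.9 in *Immtfl/fl-Myh6-MCM* hearts, against 0, 0 and 0.196 in control hearts. All 3 *Immtfl/fl-Myh6-MCM* hearts expressed the gene, replicate 1 somewhat less than the other two, and all control counts came from replicate 3.

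The pooled *Ckmt1* counts were 430 times higher in *Immtfl/fl-Myh6-MCM* hearts, with a 95% exact binomial interval of 218 to 996 that covers counting error only. The value was at least 751-fold without control replicate 3, taking a floor of 3 counts for the remaining control hearts together, 294 without control replicate 1 and 284 without control replicate 2. The fitted log2FC was 8.71 (SE 0.683, edgeR adjusted p = 6.60e-05), a size that depends on the prior count and that ranged from 8.13 to 13.49 when each heart was left out, the highest without control replicate 3. Among genes called higher that had 1 to 10 control counts, all in a single heart, 7 had them in control replicate 1, 20 in replicate 2 and 25 in replicate 3. *Strc*, which overlaps the end of *Ckmt1* on the other strand, had 2 to 8 counts in *Immtfl/fl-Myh6-MCM* hearts and 0 to 4 in control hearts.

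*Ckb* (chr12:111669361-111672338, 2895 bases) encodes the cytosolic brain-type subunit, which pairs with itself or with the muscle subunit and is the main form of the fetal heart. It had 17.5, 18.2 and 14.5 CPM in *Immtfl/fl-Myh6-MCM* hearts, against 32.4, 25.8 and 37.3 CPM in control hearts. The groups did not overlap. Its log2FC of -0.93 (SE 0.173, edgeR adjusted p = 0.00269) passed the p threshold but not the fold threshold. It passed both with upper-quartile factors (-1.03) and without control replicate 2 (-1.06).

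Divided by gene length, the 4 creatine kinases summed to 377 ± 37.5 CPM per kilobase in *Immtfl/fl-Myh6-MCM* hearts and 1685 ± 58.1 in control hearts (SD, n = 3 each), so the family was at 22.4% of its control level. The difference of the log2 sums was -2.17, with a two-sided exact permutation p of 0.1, the smallest that 3 hearts against 3 can give. *Ckmt2* lost 855 CPM per kilobase between the group means and *Ckmt1* gained 11.7, which is 1.36% of that loss. Without division by gene length, a setting added after the data were seen, *Ckmt2* lost 1270 CPM and *Ckmt1* gained 29.1, which is 2.29%. Per kilobase, *Ckmt1* made up 4.14%, 5.20% and 4.65% of the mitochondrial creatine kinase transcripts in *Immtfl/fl-Myh6-MCM* hearts, against 0%, 0% and 0.00778% in control hearts (two-sided exact permutation p = 0.1). The difference of the mean shares was 4.66 percentage points, or 7.58 without division by gene length.

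*Ckb* made up a larger share of the cytosolic creatine kinase transcripts although its own level was lower. The share was 4.43%, 5.63% and 3.73% in *Immtfl/fl-Myh6-MCM* hearts, against 1.89%, 1.72% and 1.94% in control hearts (two-sided exact permutation p = 0.1). The balance between compartments showed no such separation. Mitochondrial forms held 60.4%, 69.5% and 67.9% of all creatine kinase transcripts in *Immtfl/fl-Myh6-MCM* hearts, against 66.1%, 68.2% and 60.2% in control hearts. The difference of the means was 1.10 percentage points (two-sided exact permutation p = 0.7), and it ranged from -1.20 to 3.86 when each heart was left out in turn.

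**Figure D2:**
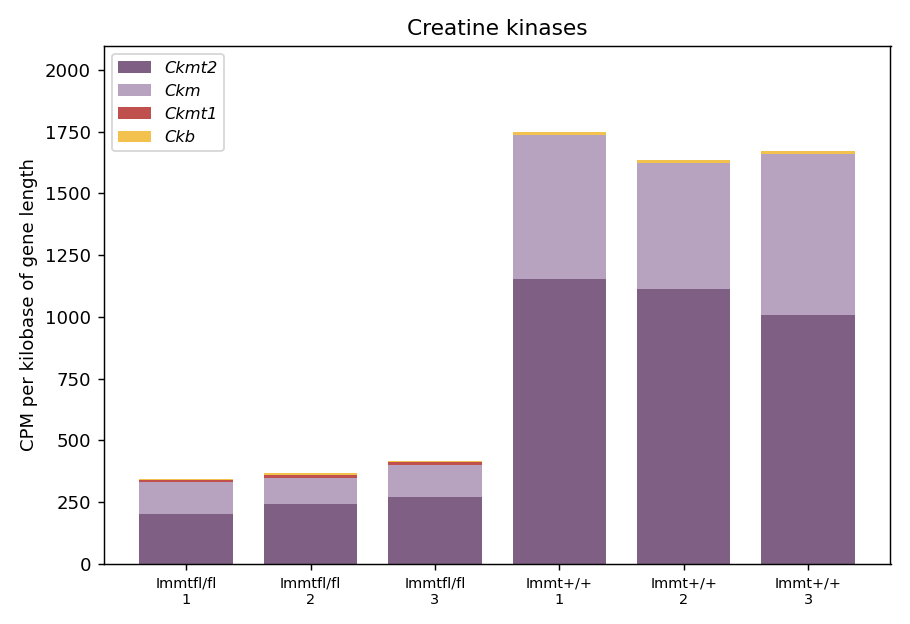
CPM per kilobase of gene length (vertical axis, linear, from 0) of the creatine kinases, 1 stacked bar per heart, *Immtfl/fl-Myh6-MCM* hearts before control hearts. The creatine kinase bars reach 345 to 418 in *Immtfl/fl-Myh6-MCM* hearts and 1634 to 1748 in control hearts, and *Ckmt1* is a thin band in the *Immtfl/fl-Myh6-MCM* bars.

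The 3 genes of creatine supply did 3 different things. *Slc6a8* (chrX:73673150-73682502, 5210 bases) encodes the sodium- and chloride-dependent creatine transporter of the plasma membrane. It had 433, 471 and 576 CPM in *Immtfl/fl-Myh6-MCM* hearts, against 222, 211 and 250 CPM in control hearts. Every *Immtfl/fl-Myh6-MCM* heart was above every control heart, and replicate 3 was the highest of its group on both sides.

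*Slc6a8* averaged 493 ± 74.1 CPM in *Immtfl/fl-Myh6-MCM* hearts and 228 ± 20.1 CPM in control hearts (SD, n = 3 each), a 2.17-fold difference (log2FC 1.12, SE 0.141, edgeR adjusted p = 3.31e-04). It ranked 225th of 27021 genes in *Immtfl/fl-Myh6-MCM* hearts and 572nd in control hearts. Without *Immtfl/fl-Myh6-MCM* replicate 3 the log2FC was 0.996, just under the fold threshold, with an edgeR adjusted p of 1.91e-04. The gene lies on the X chromosome, and with a term for the *Xist*-expressing hearts its log2FC was 1.11 (edgeR adjusted p = 2.62e-04).

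*Gamt* (chr10:80258151-80261012, 1444 bases) encodes guanidinoacetate methyltransferase, the last enzyme of creatine synthesis. It was a low transcript, with 54, 32 and 6 counts in *Immtfl/fl-Myh6-MCM* hearts, against 115, 97 and 143 counts in control hearts. As CPM it had 0.916, 0.585 and 0.109 in *Immtfl/fl-Myh6-MCM* hearts, against 3.08, 2.41 and 3.50 in control hearts. All 3 *Immtfl/fl-Myh6-MCM* hearts were under the lowest control heart, and replicate 3 held far fewer counts than the other two. The log2FC was -2.47 (SE 0.613, edgeR adjusted p = 0.0117), with a range from -3.08 without *Immtfl/fl-Myh6-MCM* replicate 1 to -1.98 without *Immtfl/fl-Myh6-MCM* replicate 3.

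*Gatm* (chr2:122594467-122611303, 3001 bases) encodes the mitochondrial arginine:glycine amidinotransferase that makes guanidinoacetate, the first step of the pathway. It had 3.43, 2.38 and 0.943 CPM in *Immtfl/fl-Myh6-MCM* hearts, against 2.73, 1.91 and 2.88 CPM in control hearts. The *Immtfl/fl-Myh6-MCM* hearts held both the highest and the lowest value of the series. The log2FC was -0.16 (SE 0.450, edgeR adjusted p = 0.815), and it was 0.22 without *Immtfl/fl-Myh6-MCM* replicate 3. Per kilobase, *Slc6a8* averaged 94.7 CPM in *Immtfl/fl-Myh6-MCM* hearts and 43.7 in control hearts, *Gatm* 0.749 in *Immtfl/fl-Myh6-MCM* hearts and 0.836 in control hearts, and *Gamt* 0.372 in *Immtfl/fl-Myh6-MCM* hearts and 2.07 in control hearts. On that scale the transporter stood far above both enzymes of synthesis in either group.

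*Ak1* (chr2:32621758-32635058, 2593 bases), the main cytosolic adenylate kinase of muscle, fell. It had 183, 171 and 199 CPM in *Immtfl/fl-Myh6-MCM* hearts, against 438, 437 and 518 CPM in control hearts. The groups were well apart, and each spread over less than 100 CPM. *Ak1* averaged 184 ± 13.8 CPM in *Immtfl/fl-Myh6-MCM* hearts and 464 ± 46.4 CPM in control hearts (SD, n = 3 each), a log2FC of -1.33 (SE 0.125, edgeR adjusted p = 6.49e-05), or 39.7% of the control level.

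*Ak4* (chr4:101419277-101466995, 4646 bases) encodes an adenylate kinase of the mitochondrial matrix, known as a stress-responsive form. It had 70.1, 70.3 and 63.7 CPM in *Immtfl/fl-Myh6-MCM* hearts, against 53.4, 33.3 and 51.5 CPM in control hearts. The groups did not overlap, although control replicate 2 was set apart from the other two. The log2FC of 0.56 (SE 0.176, edgeR adjusted p = 0.0310) was under the fold threshold, and the adjusted p ranged from 0.0110 to 0.0789 over the alternatives. Reads assigned to the pseudogene *Ak3l2-ps*, which could share reads with *Ak4*, amounted to 2.50% to 3.95% of the *Ak4* counts in *Immtfl/fl-Myh6-MCM* hearts and 1.65% to 3.09% in control hearts.

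Of the 9 adenylate kinase genes, 5 were tested, and *Ak1* was the only one called, against 20.5% of all genes tested. *Ak3*, the GTP-dependent form of the matrix, had a log2FC of -0.67 (edgeR adjusted p = 0.00536), and *Ak6* a log2FC of 0.0032 (edgeR adjusted p = 0.990).

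Cardiomyocyte markers were lower in the same hearts. Of 8 such genes (*Myh6*, *Tnnt2*, *Tnni3*, *Actc1*, *Myl2*, *Myl3*, *Ryr2* and *Pln*), 6 were called lower, against 10.6% of all genes tested, and *Myh6* and *Tnnt2* were not called. The median log2FC of the 8 was -1.42, against -0.0012 over all genes tested. The 8 genes summed to 27256, 32508 and 39942 CPM in *Immtfl/fl-Myh6-MCM* hearts, against 71119, 68501 and 73922 CPM in control hearts. *Myh6*, with a log2FC of -0.90, was the largest part of this sum in every heart. Over the 8 genes the log2FC ran from -2.16 (*Myl3*) and -2.15 (*Pln*) to -0.18 (*Tnnt2*). Ratios to the sum thus depend on the markers summed, and ratios to single markers were not computed.

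Counts of each gene were also set against the summed counts of these markers. Per 1000 marker counts, *Ckm* averaged 10.9 in *Immtfl/fl-Myh6-MCM* hearts and 23.7 in control hearts, and *Ckmt2* averaged 10.7 in *Immtfl/fl-Myh6-MCM* hearts and 22.9 in control hearts. Both were below the control hearts in every *Immtfl/fl-Myh6-MCM* heart on this scale too, with log2 ratios of -1.12 and -1.10. *Gamt* was also below in every heart (-1.21). *Ak1* no longer separated the groups, with 6.73, 5.26 and 4.97 per 1000 marker counts in *Immtfl/fl-Myh6-MCM* hearts, against 6.16, 6.38 and 7.0 in control hearts.

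*Ckb* overlapped on this scale as well, with a log2 ratio of 0.23, and so did *Gatm*, with 1.08. *Slc6a8* averaged 14.9 per 1000 marker counts in *Immtfl/fl-Myh6-MCM* hearts and 3.19 in control hearts, a log2 ratio of 2.23. *Ak4* averaged 2.11 in *Immtfl/fl-Myh6-MCM* hearts and 0.644 in control hearts, a log2 ratio of 1.71. *Ckmt1*, *Slc6a8* and *Ak4* were above the control hearts in every *Immtfl/fl-Myh6-MCM* heart on both scales. The marker sum was lower in every *Immtfl/fl-Myh6-MCM* heart than in any control heart. A gene above on the first scale therefore had to be above on the second, which is no separate check. Which of these genes the heart's other cells expressed was not tested.

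**Figure D3:**
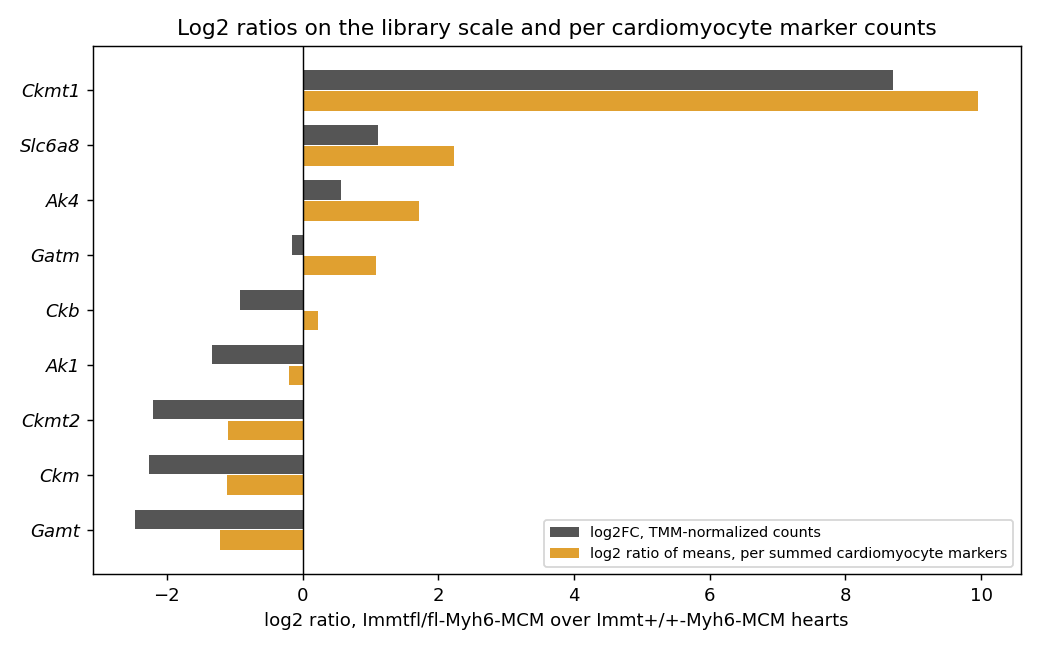
Log2 ratio of *Immtfl/fl-Myh6-MCM* over control hearts (horizontal axis) for each of the 9 genes, with the edgeR log2FC of TMM-normalized counts in grey and the log2 ratio of group means per summed cardiomyocyte marker counts in orange. The signs are the same on both scales for 7 genes, and for *Ckb* (-0.93 and 0.23) and *Gatm* (-0.16 and 1.08) they differ. For *Ckmt1*, *Slc6a8* and *Ak4* the orange sign was fixed by the lower marker sum of the *Immtfl/fl-Myh6-MCM* hearts.

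Markers of other cells were read beside these values. Over all genes tested, 9.91% were called higher and 10.6% lower. Endothelial markers summed to 577 to 768 CPM in *Immtfl/fl-Myh6-MCM* hearts and 847 to 946 CPM in control hearts, with none of 5 called by edgeR or DESeq2 (4 lower at an unadjusted p under 0.05). Fibroblast markers summed to 665 to 887 CPM in *Immtfl/fl-Myh6-MCM* hearts and 753 to 1144 CPM in control hearts, with none of 6 called by either tool (2 lower at an unadjusted p under 0.05). Smooth muscle and pericyte markers summed to 1000 to 1388 CPM in *Immtfl/fl-Myh6-MCM* hearts and 1167 to 1366 CPM in control hearts, with *Acta2* higher and *Myh11* lower of 7. Macrophage markers summed to 170 to 359 CPM in *Immtfl/fl-Myh6-MCM* hearts and 136 to 188 CPM in control hearts, with *Cd163* higher of 6.

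*Ckmt1* and *Ckb* are known from brain, and *Gatm* and *Gamt* from kidney and liver. The neuron and glia markers were low throughout, with 4.13 to 8.16 CPM in *Immtfl/fl-Myh6-MCM* hearts and 10.3 to 16.5 CPM in control hearts, and *Rbfox3* averaged 0.059 CPM in *Immtfl/fl-Myh6-MCM* hearts and 0.025 CPM in control hearts. Of the liver and kidney markers, only *Apoa1* and *Ttr* were found, and the kidney markers *Umod*, *Kap* and *Slc34a1* were not. *Apoa1* and *Ttr* summed to 0.780 to 1.46 CPM in *Immtfl/fl-Myh6-MCM* hearts and 0 to 0.496 CPM in control hearts. Skeletal muscle markers, relevant to *Ckm*, summed to 1.29 to 1.70 CPM in *Immtfl/fl-Myh6-MCM* hearts and 1.76 to 3.06 CPM in control hearts. Atrial markers were higher, at 935 to 1439 CPM in *Immtfl/fl-Myh6-MCM* hearts and 109 to 236 CPM in control hearts, nearly all of it *Nppa*, a gene of the atria and of the stressed ventricle. *Myl4*, the atrial light chain, rose as well, with 8.96, 5.01 and 5.84 CPM in *Immtfl/fl-Myh6-MCM* hearts, against 1.87, 1.19 and 2.32 CPM in control hearts (log2FC 1.88, edgeR adjusted p = 0.00239). *Myl7* averaged 0.195 CPM in *Immtfl/fl-Myh6-MCM* hearts and 0.106 CPM in control hearts. Lymphocyte and neutrophil markers summed to 2.87 to 29.9 CPM in *Immtfl/fl-Myh6-MCM* hearts and 0.244 to 1.47 CPM in control hearts. The highest sum was mostly *Cd3e* in replicate 3. *Cd3e* had 0.271, 1.39 and 20.9 CPM in *Immtfl/fl-Myh6-MCM* hearts and was not called. *S100a8* and *S100a9* were called higher (log2FC 6.62 and 3.71). Adipocyte markers summed to 0.339 to 1.29 CPM in *Immtfl/fl-Myh6-MCM* hearts and 0 to 2.54 CPM in control hearts. The part of any of these cells in the values of the 9 genes was not tested.

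The substrates of creatine come from arginine, glycine and the methyl group of S-adenosylmethionine. Of 16 tested genes that supply them, 5 rose and none fell past both thresholds by edgeR or by DESeq2 (10 higher and 2 lower at an unadjusted p under 0.05). By edgeR, 9.91% of all genes tested were higher and 10.6% lower. The median log2FC of the list was 0.68, against -0.0012 over all genes tested. The glycine transporter *Slc6a9* had 69.1, 62.6 and 49.0 CPM in *Immtfl/fl-Myh6-MCM* hearts, against 2.25, 2.53 and 3.40 CPM in control hearts (log2FC 4.46). *Shmt2*, which makes glycine from serine in mitochondria, had 253, 232 and 191 CPM in *Immtfl/fl-Myh6-MCM* hearts, against 35.1, 35.3 and 36.6 CPM in control hearts (log2FC 2.66). The cationic amino acid transporters *Slc7a3* and *Slc7a1*, which carry arginine, had log2FC of 6.96 and 2.01, and *Ahcy*, which clears S-adenosylhomocysteine after methyl transfer, had 1.54 (edgeR adjusted p = 1.77e-06 to 2.33e-04 for the 5 genes). All of these groups were apart, as they were for 52.8% of all genes tested, in the same hearts in which *Gamt* fell and *Gatm* overlapped.

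Among 6 tested carriers of the creatine transporter's own family (SLC6) or of the monocarboxylate family that includes *Slc16a12*, 3 were higher (*Slc6a9*, *Slc6a12* and *Slc6a17*) and 1 was lower. Over all genes tested, 9.91% were higher and 10.6% lower. The median log2FC of these carriers was 0.88. The lower one was *Slc16a12*, outside the family of *Slc6a8*, which carries creatine and its precursor guanidinoacetate in human and rat, with 1.75, 1.63 and 1.32 CPM in *Immtfl/fl-Myh6-MCM* hearts, against 4.85, 3.32 and 5.43 CPM in control hearts (log2FC -1.53, edgeR adjusted p = 0.00354). It thus moved opposite to *Slc6a8*, at a level far under it.

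Of 11 tested genes of ATP and phosphate exchange across the mitochondrial membranes, the step that feeds *Ckmt2*, 2 were higher and 1 was lower. Over all genes tested, 9.91% were higher and 10.6% lower. The median log2FC of the list was -0.08. The adenine nucleotide carriers had values of opposite sign. *Slc25a4*, the form of heart and muscle, had 1336, 1642 and 2526 CPM in *Immtfl/fl-Myh6-MCM* hearts, against 3276, 3106 and 3596 CPM in control hearts (log2FC -0.86, edgeR adjusted p = 0.0137, not called). *Slc25a5*, the more widely expressed form, had 502, 515 and 760 CPM in *Immtfl/fl-Myh6-MCM* hearts, against 201, 254 and 223 CPM in control hearts (log2FC 1.39, edgeR adjusted p = 3.88e-04). *Slc25a25*, an ATP-magnesium and phosphate carrier, was also higher (1.19), and *Slc25a42*, a carrier of coenzyme A and adenine nucleotides, was lower (-1.52).

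Of 11 tested ATP users and anchors of the cytosolic enzyme, 1 was higher and 3 were lower, against 9.91% and 10.6% of all genes tested. The median log2FC was -0.14. *Fhl2*, a LIM protein that tethers muscle creatine kinase and adenylate kinase to titin, had 380, 425 and 321 CPM in *Immtfl/fl-Myh6-MCM* hearts, against 1645, 1716 and 1524 CPM in control hearts (log2FC -2.12, edgeR adjusted p = 1.02e-05). *Atp2a2*, the calcium pump of the sarcoplasmic reticulum, fell as well (log2FC -1.53), whereas the sodium pump subunit *Atp1b1* rose (1.19). *Fhl2* fell by a size near that of *Ckm*, and *Myh6* (-0.90) was not called.

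Of 14 tested genes of AMP sensing and removal, 3 were higher and 2 were lower, against 9.91% and 10.6% of all genes tested. The median log2FC was 0.0024. *Prkab2*, a regulatory subunit of AMP-activated kinase, had 238, 287 and 347 CPM in *Immtfl/fl-Myh6-MCM* hearts, against 91.6, 89.3 and 81.3 CPM in control hearts (log2FC 1.73, edgeR adjusted p = 4.67e-05). *Nt5e*, the surface enzyme that turns AMP into adenosine, and *Ada*, which deaminates adenosine, were higher too (2.34 and 2.54). *Nt5c1a*, the cytosolic AMP nucleotidase of striated muscle, had 2.61, 2.32 and 2.38 CPM in *Immtfl/fl-Myh6-MCM* hearts, against 19.4, 10.3 and 17.5 CPM in control hearts (log2FC -2.69, edgeR adjusted p = 8.39e-05), and *Prkag3* was lower (-1.30). Among 10 other phosphotransfer kinases, *Nme1*, a nucleoside diphosphate kinase, was higher (1.84) and *Cmpk2*, a mitochondrial nucleoside monophosphate kinase, was lower (-2.37), with a median of 0.13. These calls too stand against 9.91% higher and 10.6% lower among all genes tested.

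None of 10 transcription factors and coactivators known for muscle creatine kinase or energy genes was called by edgeR or by DESeq2, and their median log2FC was -0.48. By edgeR, 20.5% of all genes tested were called. At an unadjusted p under 0.05, 1 had a positive and 5 had a negative log2FC. At an adjusted p alone, *Esrrb* (-0.95), *Esrrg* (-0.61) and *Mef2c* (-0.67) had negative values and *Srf* (0.55) a positive one. No log2FC of this list was as large as those of *Ckm* and *Ckmt2*.

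**Figure D4:**
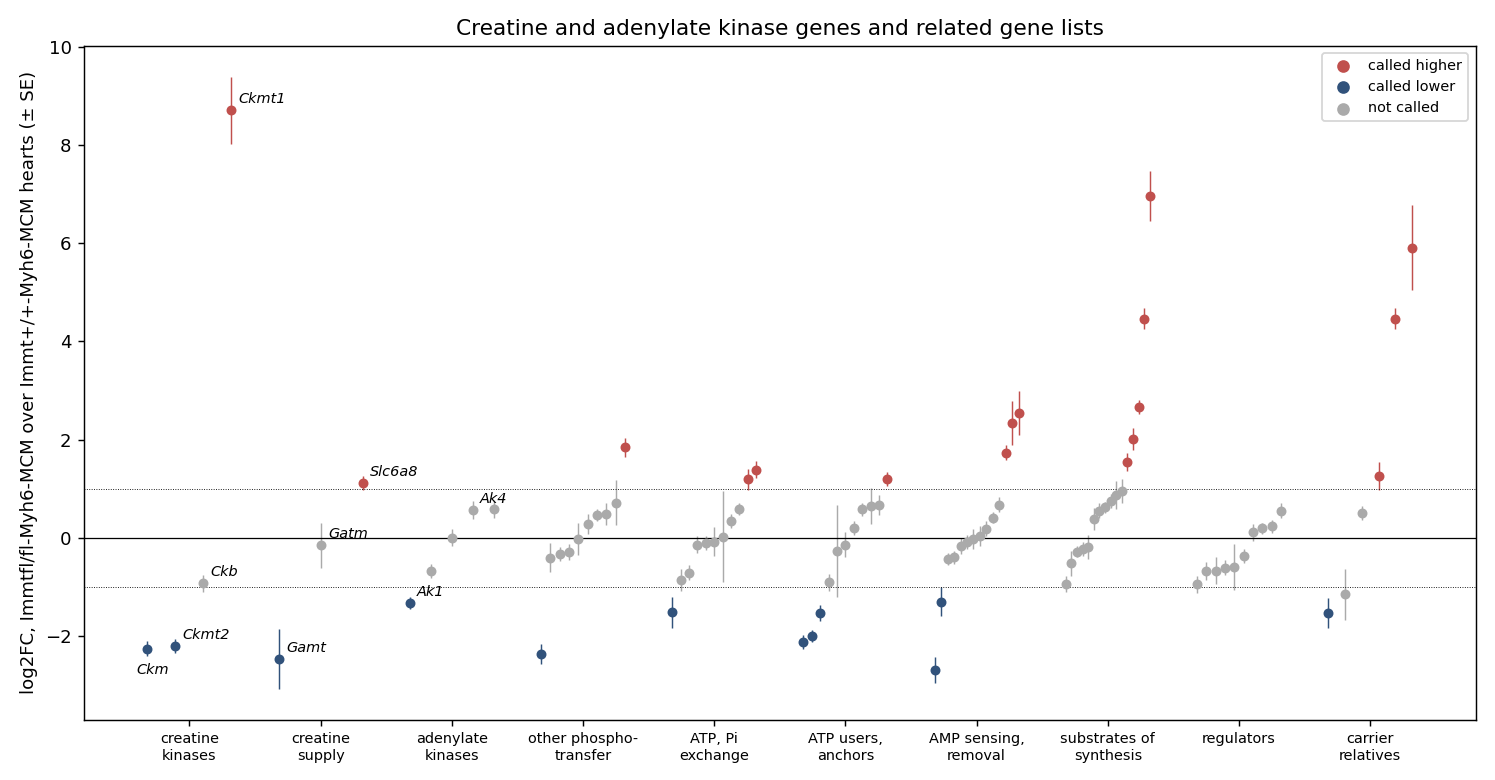
edgeR log2FC of *Immtfl/fl-Myh6-MCM* over control hearts (vertical axis) with its SE (bars) for each tested gene of the 10 lists (horizontal axis), sorted by value within a list. Red points were called higher, dark blue points lower and grey points not called, and the dotted lines mark the fold threshold of 1 and -1. *Ckmt1* (8.71) and *Slc7a3* (6.96) are the highest points, and the list of regulators has grey points only.

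Hearts of 1 group did not vary in step across the 9 genes. *Immtfl/fl-Myh6-MCM* replicate 3 was the lowest of its group for *Ckb*, *Gatm*, *Gamt* and *Ak4* and the highest for *Ckmt2*, *Slc6a8* and *Ak1*, and its cardiomyocyte marker sum was the highest of the 3. The coefficient of variation among *Immtfl/fl-Myh6-MCM* hearts was 5.49% for *Ak4*, 7.51% for *Ak1* and 11.7% for *Ckm*, but 55.4% for *Gatm* and 75.6% for *Gamt*. Among control hearts it was 6.97% for *Ckmt2*, 8.82% for *Slc6a8* and 20.9% for *Gatm*.

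For each called gene, the genes with the most similar pattern over the 6 hearts were taken by the root-mean-square distance of mean-centred log2 CPM, among 13722 genes. *Ckm* was nearest to its antisense neighbour *A930016O22Rik* (0.0965), then to *Phyhip* (0.125) and *Fndc5* (0.138), whose protein is the precursor of irisin. *A930016O22Rik* lies inside *Ckm*, and with strand use unstated its reads cannot be told apart from those of *Ckm*. *Ckmt2* was nearest to *Gm47644* (0.0742), *Zfp612* (0.0747) and *Pln* (0.106), which encodes phospholamban, the inhibitor of the calcium pump. *Ckmt1* was nearest to *Akr1b7* (0.665), *Slc7a11* (0.762), which encodes the cystine transporter, and *Adm2* (0.766), all at larger distances.

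*Slc6a8* had close neighbours in *Zfand2a* (0.0353), *Usp39* (0.0401) and *Ahi1* (0.0468). *Ak1* was nearest to *Scarf1* (0.0545), *Lynx1* (0.0585) and *Uqcr11* (0.0718), the last a subunit of respiratory complex III. The nearest genes to *Gamt* were *Vtn* (0.269), *Fgf16* (0.270) and *Cmtm8* (0.294). These distances describe 6 hearts in which the group difference is the main part of the pattern.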

How the data were processed

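The submitters' processing notes list the tools STAR 2.7.11, SAMtools 1.22.1, Subread 2.1.1 with featureCounts, and edgeR 4.0.16, and the genome as GRCm38 or mm10. What each tool did, whether counting used strand and how molecular identifiers were handled is not stated in the sources. The labels describe capture by oligo-dT followed by tagmentation, which can favour reads near the 3′ end, so that levels per kilobase were also computed without gene length. Every value here comes from the unnormalized counts of each library that the authors deposited. The deposited signal per library equals the counts divided by 1 size factor, and its group means and the deposited FPKM values of the authors were not used. The authors also deposited their own comparison of the groups as log2 fold changes with raw and adjusted p-values, none of which was used.

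Genes were filtered with filterByExpr of edgeR (minimum count 10, minimum total count 15), scaled by TMM (factors 1.04 to 1.14 in *Immtfl/fl-Myh6-MCM* and 0.884 to 0.939 in control hearts) and compared with the robust quasi-likelihood F test (edgeR 4.0.16, run under R 4.3.3), with Benjamini-Hochberg adjustment over all genes tested. Standard errors were taken as the size of the log2FC over the root of F. The prior count of a log2FC was 0.125. The thresholds are those the study states for its volcano plot. Shares were compared by exact permutation over hearts. Intervals and floors cover counting error only. The fit was tested on simulated data. Alternatives were RLE and upper-quartile factors, DESeq2 1.42.0, no filter, a stricter filter (mean CPM from 1 up), a replicate block, leaving out each heart, no fold threshold, counts without gene length, removal of mitochondrially encoded genes and a term for *Xist*. Figures were drawn with matplotlib 3.10.9.

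Named genes are the 9 genes, *Immt*, up to 4 genes with the smallest p in each list, others needed for a list's count, whole marker lists and, per called gene, the 3 genes of nearest pattern with a mean CPM of at least 1. The genes and lists were chosen with earlier results of these data known. Of 168 list entries, 160 were found and the rest were not analysed here. Results of some listed genes, and sums that include them, are not reported here. Protein sequences were not used here. No pair of libraries within a group agreed within sampling noise (chi-square per degree of freedom 34.1 to 127).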

Additional observations from a re-analysis of the deposited data

How the results depend on the processing

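*Ckm*, *Ckmt2*, *Ckmt1*, *Gamt* and *Ak1* kept their call and direction under all 14 alternatives, and *Ak4* stayed uncalled. *Ckb* passed the fold threshold with upper-quartile factors (-1.03), which move the median log2FC of all genes to -0.10, and it ranged from -1.06 to -0.80 when each heart was left out. *Slc6a8* ranged from 0.996 to 1.2 and *Gatm* from -0.58 to 0.22 in the same way, with the low value of *Slc6a8* and the high value of *Gatm* found without *Immtfl/fl-Myh6-MCM* replicate 3, so that 1 to 2 of the 9 genes were called higher and 4 to 5 lower. Calls on the adjusted p alone, without a fold threshold, came to 3418 higher and 3172 lower genes, against 1699 and 1818. Without division by gene length, the difference of the *Ckmt1* share was 7.58 percentage points against 4.66, and its gain was 2.29% of the *Ckmt2* loss against 1.36%, the last comparison chosen after seeing the data. The difference of the mitochondrial share was -0.69 without *Immtfl/fl-Myh6-MCM* replicate 2 and -1.20 without control replicate 3, within a range of -1.20 to 3.86. The cause of these shifts was not tested.

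Samples with the same number did not deviate together (correlations of -0.0376 to 0.0141 over 17146 genes), so the numbers were not taken as pairs. With the replicate block, 1574 genes were higher and 1682 lower by edgeR, the 9 genes gave 2 higher and 4 lower, and none changed its call. Depth limits *Gamt* and *Gatm*, with 6 to 202 counts per heart, and the control level of *Ckmt1*, which rests on 8 counts.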
